A study of Mus musculus with 18 samples.

Results

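The genes described here encode the proteins of the cytosolic ribosome, and they were followed through mouse models of myelodysplasia and leukemia that carry the NUP98-HOXD13 (NHD13) transgene with or without Setd2. Members were the symbols that begin with Rpl or Rps followed by a digit or p, without processed copies (symbols with -ps) and S6 kinases, with a mean of at least 10 CPM (counts scaled to library size) in 1 or more of the 4 groups. Of 53946 rows in the count table, 382 symbols had the pattern, 279 were -ps copies, 11 were S6 kinases, and 82 of the remaining 92 reached the level: 48 Rpl symbols of the large subunit and 34 Rps symbols of the small subunit. Rpl37rt, at 11.8 CPM in its highest group, lay just inside that level, and Rpl36al, at 7.22 CPM, just outside it. The label held with exceptions on both sides: Rps19bp1 encodes a protein that binds Rps19 and is not part of the ribosome, Rps27rt and Rpl37rt are named as retrotransposed copies, and genes such as Rpsa, Fau and Rack1 encode ribosomal proteins under other symbols.

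RNA was sequenced from 12 libraries, 3 in each of 4 groups, all labelled as strain C57BL/6. The AML group was C-Kit+ spleen cells of NHD13/Setd2 KO mice at the leukemia stage, the KO group was bone marrow hematopoietic stem and progenitor cells (HSPCs) of NHD13/Setd2 KO mice, the NHD13 group was HSPCs of NHD13/Setd2 flox/flox mice, and the WT group was HSPCs of C57BL/6 mice without the transgene. The AML, KO and NHD13 groups all carry the NHD13 transgene, which is driven by the Vav promoter in blood cells, and Setd2 was deleted with Mx1-Cre, an interferon-inducible recombinase. H3K36me3 ChIP-seq was available for 1 library of NHD13/Setd2 KO AML and 1 of NHD13 AML, both from C-Kit+ spleen cells, and regions of differential DNA methylation for 1 bisulfite library of each RNA group. The sources used here give no ages and no number of mice. The labels do not say whether replicates are different mice, so a p-value here reflects only scatter of libraries within groups, which may be technical variation. The fit estimated that scatter over all 4 groups together, so the scatter of WT libraries also enters comparisons without WT.

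Each ribosome has a small subunit, which reads the mRNA, and a large subunit, which joins amino acids, and each holds one copy of most of its proteins. The mRNAs of these proteins begin with a cytosine and a stretch of pyrimidines, the 5′ terminal oligopyrimidine (TOP) motif, through which mTOR and Larp1 control their translation together. Loss of 1 allele of several of these genes causes Diamond-Blackfan anemia in humans, and loss of RPS14 contributes to the anemia of myelodysplasia with deletion of chromosome 5q. Free Rpl5 and Rpl11 bind Mdm2 with 5S RNA and so raise p53. Setd2 is the enzyme that trimethylates histone H3 at lysine 36 (H3K36me3) along transcribed gene bodies, a mark that recruits de novo DNA methyltransferases.

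Pyrimidine runs near a listed start are shown for the members on which the expression results turn. Each is given as 30 bases of RefSeq sequence (GRCm38.p6), 5′ to 3′. The longest run of C and T within 20 bases before to 50 bases after a listed start is in capitals. Where a gene had several listed starts, the one with the longest run was taken, and a listed start can lie inside the annotated body: that of Rps2 lies 1942 bases, that of Rps27l 1462 and that of Rps12 174 bases downstream of its outer end. Rpl35, Rps23 and Rps2 were among the members that rose most in KO libraries over WT libraries, Rpl28, Rps12, Rps21 and Rpl22 rose most and Rps19 and Rps27l fell in AML libraries over KO libraries, Rpl11 is the p53 regulator, and Rpl7l1 is the member that fell in KO libraries over NHD13 libraries.
Rpl35 (chr2:39005115-39005144, minus strand): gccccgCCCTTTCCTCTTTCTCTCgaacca
Rps23 (chr13:90923142-90923171, plus strand): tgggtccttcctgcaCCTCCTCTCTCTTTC
Rps2 (chr17:24720083-24720112, plus strand): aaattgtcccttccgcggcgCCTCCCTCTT
Rpl11 (chr4:136053358-136053387, minus strand): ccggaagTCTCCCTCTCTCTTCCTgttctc
Rpl28 (chr7:4792952-4792981, plus strand): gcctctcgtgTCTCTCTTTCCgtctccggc
Rps12 (chr10:23787182-23787211, minus strand): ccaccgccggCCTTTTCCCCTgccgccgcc
Rps21 (chr2:180257399-180257428, plus strand): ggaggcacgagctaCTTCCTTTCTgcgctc
Rpl22 (chr4:152324413-152324442, plus strand): aatatcagcgctgCTTCTggaatgttccag
Rps19 (chr7:24884612-24884641, plus strand): cgcccgggaaaccccgtcgTTCCCTTTCCC
Rps27l (chr9:66946063-66946092, plus strand): actcctctccaCTCCTCCCCgccgcctcta
Rpl7l1 (chr17:46782660-46782689, minus strand): gcctctctaccccgCCCggtgaggctgcgc

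Within the window, the runs were 18 bases in Rpl35, 17 in Rpl11 and 15 in Rps23, against 5 in Rpl22 and 3 in Rpl7l1. The runs of Rps2, Rps19 and Rps23 end at the last base of the window and may go on beyond it. Counted from the listed start, the run began at base 41 in Rps2, 40 in Rps19, 36 in Rps23, 35 in Rps21, 14 in Rpl11 and 9 in Rps12. It began before the listed start by 3 bases in Rpl28, 7 in Rpl35, 10 in Rpl22, 12 in Rps27l and 19 in Rpl7l1. A run in this window is therefore not by itself a TOP motif at the 5′ end of the mRNA. Of the 61 members with an entry in the promoter table, 47 (77.05%) held a run of at least 8 pyrimidines in that window, against 28.51% of the 27025 genes of the table, and 41 (67.21%) held one of at least 10, against 13.79%. Among genes with 1 listed start, a restriction chosen after the data were seen, 39 of 52 members (75%) and 25.3% of all genes held a run of at least 8. The letters CCGGAAG, searched on both strands of 250 bases before to 50 after the start, were present in 39.34% of these members and 9.93% of all genes, and GGGCGG in 62.3% and 38.2%. TATAAA was found in 11.48% of members and 15.67% of all genes. Matches to CCGGAAG and GGGCGG can share bases at their ends, and a match describes letters, not a bound site.

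Library totals ranged from 18673704 to 28127686 counts. Setd2 itself, whose count over the whole gene need not show a deletion of part of it, had 32.4 ± 2.91 CPM in KO libraries and 33.5 ± 1.72 CPM in NHD13 libraries (SD, n = 3 each), a log2 difference of -0.05 with an edgeR adjusted p of 0.685. In AML libraries it had 183 ± 4.14 CPM, so the RNA level of the targeted gene does not check the KO or AML label. Xist ranged from 0 to 0.052 CPM in AML libraries, from 0.036 to 0.098 in KO libraries, from 53.9 to 109.3 in NHD13 libraries and from 125 to 228.9 in WT libraries, and Eif2s3y, which is Y-linked, averaged 84.7, 55.6, 0.013 and 0 CPM in the same groups. Sex therefore cannot be told apart from Setd2 status in KO against NHD13. Activity of Mx1-Cre goes with Setd2 status there and cannot be told apart from it either. In KO against WT, sex, Setd2 status and the NHD13 transgene differ together and cannot be told apart. All 6 stem and progenitor markers were detected in every group, with sums of 557 to 568.3 CPM in AML, 327.5 to 340.4 in KO, 89.9 to 96.0 in NHD13 and 778.6 to 792 in WT libraries, and the 10 neutrophil markers summed to 24110 to 24530, 52360 to 55950, 138800 to 160300 and 26340 to 29960 CPM in the same groups. In bulk RNA, fewer cells of a type and less RNA per cell cannot be told apart.

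The 82 genes took 8.58%, 8.51% and 8.72% of counts in AML libraries, 8.49%, 7.87% and 8.53% in KO libraries, 5.54%, 5.90% and 5.55% in NHD13 libraries, and 6.21%, 8.08% and 8.08% in WT libraries. Every AML, KO and WT library lay above every NHD13 library, and replicate 1 of WT lay closest to them. The 10 most abundant genes took 9.63% ± 0.394 of counts in KO libraries and 14.9% ± 0.833 in NHD13 libraries, and without them the share of the members was 9.0% ± 0.370 in KO and 6.65% ± 0.302 in NHD13 libraries (SD, n = 3 each). On that measure replicate 1 of WT, at 6.67%, lay below replicate 2 of NHD13, at 7.0%. Large-subunit genes supplied 4.73% ± 0.213 in KO and 3.25% ± 0.099 in NHD13 libraries, and small-subunit genes 3.57% ± 0.160 and 2.42% ± 0.107. The -ps copies that the rule leaves out took 0.026% to 0.050% of counts in any library.

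**Figure D1:**
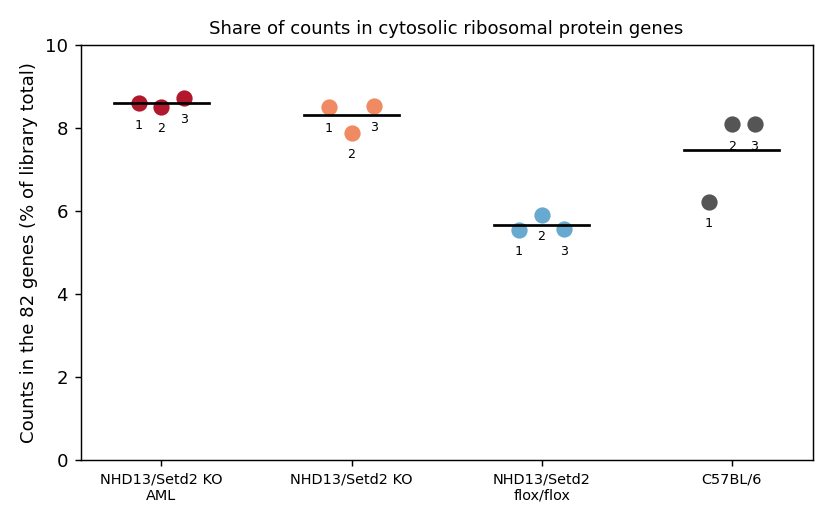
Share of all gene-level counts that fell in the 82 genes, in percent of the library total, for the 12 RNA libraries. Points are libraries with their replicate numbers and lines are group means; the 3 NHD13 libraries sit at 5.54% to 5.90%, and replicate 1 of WT, at 6.21%, sits below the other WT libraries.

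Per length of gene the members spanned a wide range. The median member had 495 FPKM (counts scaled to gene length and library size) in AML, 424 in KO, 282 in NHD13 and 390 in WT libraries. In WT libraries Rps3a1, a small-subunit protein, at a mean of 1951 FPKM was among the highest, with Rpl36 at 1739 and Rplp0, the base of the stalk that binds elongation factors, at 1730 FPKM. The lowest were Rpl13a at 5.26, Rpl37rt at 6.33, Rpl22l1 at 19.4 and Rps4l at 30.3 FPKM. Rpl13a belongs to every ribosome, and Rpl24, another core protein, did not reach the level for membership, with at most 1.05 CPM, so levels of members with near-identical processed copies may be lowered by how reads that fit several places were counted, which was not tested. In AML libraries Rplp1, a stalk protein, had the value 3025 FPKM, against 1832 FPKM in KO libraries.

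Replicate 1 of WT stood apart from the other WT libraries. The median member deviated by -0.31 on the log2 CPM scale from its group mean in that library and by 0.16 and 0.15 in the others, and it was the lowest of the 3 WT libraries for 80 of 82 members. The median coefficient of variation of a member was 17.36% in WT, against 2.24% in AML, 5.74% in KO and 6.82% in NHD13 libraries. Counts and the values of named members over WT are therefore given with and without it.

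Ribosomal protein genes were higher in KO HSPCs than in NHD13 HSPCs almost throughout. In the edgeR quasi-likelihood test with Benjamini-Hochberg adjustment over 16233 genes, 53 of 82 members rose and 1 fell, where 20.6% of all genes rose and 20.3% fell. The median log2 difference of the members was 0.34, against 0.02 for all genes tested, and 80 of 82 had a positive value. All 3 KO libraries lay above all 3 NHD13 libraries for 68 members, a pattern seen in 25.5% of all genes. Both subunits took part, with 29 of 48 Rpl and 24 of 34 Rps symbols called higher and median differences of 0.34 in each.

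The rise was largest for Rpl29, a protein of the large-subunit surface, which had 138, 132 and 152 CPM in KO libraries and 54.3, 58.4 and 64.4 CPM in NHD13 libraries (log2 difference 1.25 ± 0.085 SE, edgeR adjusted p = 9.15e-10). Rps19, the gene most often mutated in Diamond-Blackfan anemia, had 3222, 2972 and 3399 CPM in KO libraries and 1903, 2092 and 2026 CPM in NHD13 libraries, a log2 difference of 0.67 ± 0.0835 (edgeR adjusted p = 2.64e-06). Rpl35, a large-subunit protein at the exit of the peptide tunnel, had 220, 170 and 231 CPM in KO and 121, 131 and 139 CPM in NHD13 libraries, with a log2 difference of 0.67 ± 0.14 (edgeR adjusted p = 0.00286). Rps4l, a paralog of Rps4x at low level, had 3.64, 3.39 and 4.03 CPM in KO libraries and 1.13, 2.57 and 2.13 CPM in NHD13 libraries (log2 difference 0.91 ± 0.21, edgeR adjusted p = 0.0025). For these 4 genes the groups did not overlap.

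Among 19 members linked to Diamond-Blackfan anemia or the 5q- syndrome in humans, 12 rose in KO libraries over NHD13 libraries and none fell, where 20.6% and 20.3% of all genes did, with a median log2 difference of 0.35. Of all 82 members 53 rose, with a median of 0.34, so the rise was not particular to these 19. Rps14 was one of the 12, with 1986, 1893 and 1977 CPM in KO libraries and 1402, 1569 and 1404 CPM in NHD13 libraries (log2 difference 0.42, edgeR adjusted p = 0.000595). Rpl5 did not pass, with a log2 difference of 0.11 (edgeR adjusted p = 0.344), while its partner in the 5S particle, Rpl11, rose by 0.26 (edgeR adjusted p = 0.0331). All 3 stalk genes rose, with log2 differences of 0.48 for Rplp1, 0.35 for Rplp2 and 0.20 for Rplp0. Rps27a, whose protein is made as a fusion with ubiquitin, had 0.17 (edgeR adjusted p = 0.35).

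The member that fell was Rpl7l1, a paralog of Rpl7 that acts in ribosome assembly in the nucleolus, at 215, 217 and 212 CPM in KO libraries and 275, 254 and 279 CPM in NHD13 libraries (log2 difference -0.33 ± 0.064, edgeR adjusted p = 0.000393). Rps19bp1, the member that is no ribosomal protein, had -0.02 (edgeR adjusted p = 0.848). The X-linked members Rpl10 and Rps4x rose by 0.47 and 0.30, and Rpl36a and Rpl39, also X-linked, had 0.19 and 0.11 and did not pass.

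The same contrast differed in cell markers: the 6 stem and progenitor markers all rose in KO libraries over NHD13 libraries and the 10 neutrophil markers all fell, with summed levels as given above. All 7 B cell markers also fell, with sums of 60.6 to 65.8 CPM in KO and 110.5 to 115.5 CPM in NHD13 libraries. Of 9 erythroid markers, 2 fell and none rose. Their part in the difference of the ribosomal protein genes was not tested. Without replicate 3 of NHD13, 33 members were called higher and 1 lower, where 18.1% of all genes were called each way.

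**Figure D2:**
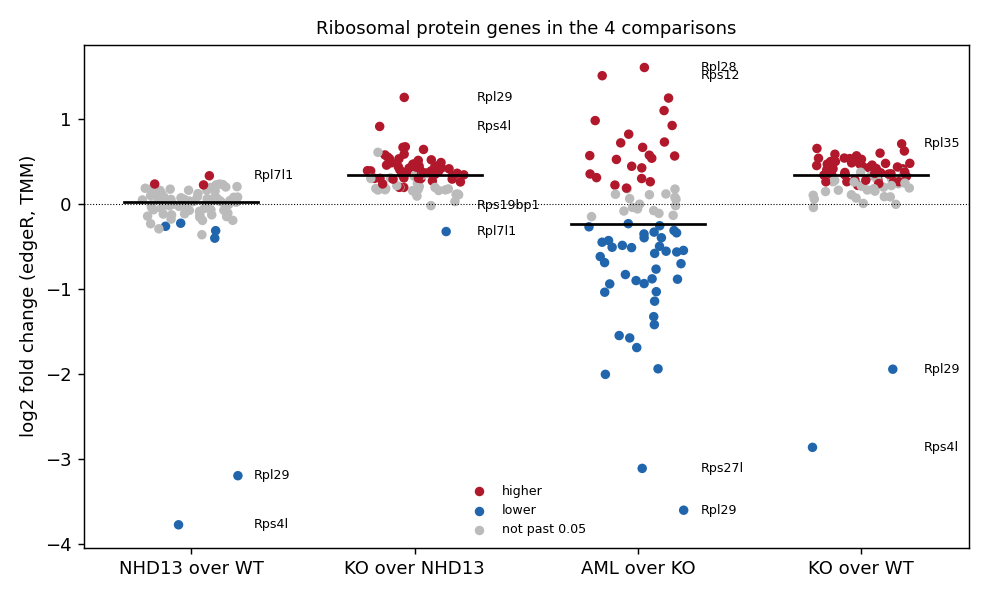
log2 fold changes of the 82 genes in the 4 comparisons, each named as the group on top over the group below; 1 point is 1 gene, lines are medians, and colors give the direction of genes with an edgeR adjusted p below 0.05. Nearly all points of KO over NHD13 lie above 0, those of AML over KO spread to both sides; Rps4l, which had no count in AML libraries, is not drawn in AML over KO.

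Of the 4 ribosomal proteins with other symbols, 3 rose in KO libraries over NHD13 libraries, among them Rpsa by 0.26 and Fau by 0.24 on the log2 scale. Rack1, a scaffold on the small subunit, had 0.13 (edgeR adjusted p = 0.179). In these and the following lists the shares of all genes to set beside the counts are 20.6% higher and 20.3% lower. Among 22 genes of translation factors and other TOP mRNAs, 9 rose and 1 fell, with a median of 0.26. Eef1a1, the elongation factor that delivers tRNA, had 4449, 4222 and 4466 CPM in KO libraries and 2678, 3237 and 2303 CPM in NHD13 libraries, and Gas5, a noncoding TOP transcript, had 534, 482 and 483 CPM in KO and 296, 330 and 289 CPM in NHD13 libraries. Neither pair of groups overlapped, and the log2 differences were 0.68 (edgeR adjusted p = 0.0217) and 0.71 (edgeR adjusted p = 7.71e-07). The 1 that fell was Eif2s3x, an X-linked initiation factor subunit, by 0.53 on the log2 scale.

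Genes of ribosome assembly and of RNA polymerase I were mostly not called: 11 of 43 rose and 1 fell, with a median of 0.08, against 0.02 for all genes, and the share that rose was near that of all genes. Tsr2, the escort of Rps26, rose by 0.37 and Heatr1, an early assembly factor, by 0.37, and Ncl, nucleolin, fell by 0.18. Of 12 regulators, 3 rose and 2 fell. Myc, an activator of ribosome production, had 244, 262 and 237 CPM in KO libraries and 179, 152 and 203 CPM in NHD13 libraries, without overlap (log2 difference 0.48, edgeR adjusted p = 0.00393). Mycn had 6.01, 7.99 and 5.70 CPM in KO libraries and 0.702, 0.839 and 0.841 CPM in NHD13 libraries (log2 difference 3.05, edgeR adjusted p = 2.45e-09). Rps6kb1, an S6 kinase, fell by 0.36 on the log2 scale, with an edgeR adjusted p of 0.000183.

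KO HSPCs also stood above WT HSPCs, a comparison that shares its KO libraries with the one above. The transgene, Setd2 status and sex differ together between these groups. Of the members, 50 rose and 2 fell, where 17.2% of all genes rose and 20% fell. The median log2 difference was 0.34, against -0.01 for all genes. Of the 2017 genes with a mean of 100 CPM or more, 890 rose and 162 fell, with a median of 0.155. A rise was thus common among genes of that level. All 3 KO libraries lay above all 3 WT libraries for 59 members, as for 21.2% of all genes. Without replicate 1 of WT, 47 rose and 3 fell, where 18.1% and 19.6% of all genes did, and the median was 0.18. Called higher with and without it were 46 members. With column totals 21 rose and 3 fell, where 7.65% and 34.7% of all genes did, and the median was 0.14 against -0.21 for all genes. The rise was largest for Rpl35 (log2 difference 0.71), Rps23 (0.65), Rps29 (0.62) and Rps2 (0.60), which had 0.56, 0.47, 0.51 and 0.45 in the same order without replicate 1 of WT and passed there too. Rps23, a protein of the decoding center, had 1929, 1731 and 1826 CPM in KO libraries and 848, 1327 and 1316 CPM in WT libraries (edgeR adjusted p = 0.00248).

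The pathway lists in KO libraries over WT libraries held 18 of 43 assembly genes that rose and none that fell, with a median of 0.17. Of all genes, 17.2% rose and 20% fell. Of the 2017 genes with a mean of 100 CPM or more, 890 rose and 162 fell, with a median of 0.155. The rise was thus not particular to the assembly list. Taf1c and Polr1b of the RNA polymerase I machinery led that list, at 0.53 each. Of the 22 TOP genes 6 rose and 1 fell. Without replicate 1 of WT, 22 assembly genes rose and 2 fell, and 5 TOP genes rose and 1 fell, where 18.1% and 19.6% of all genes did. Among regulators, Larp1, which binds TOP mRNAs, rose by 0.60 and Eif4ebp1, a target of mTOR that restrains initiation, by 0.57. Mycn fell by 0.91 and Myc by 0.35 on the log2 scale. Without replicate 1 of WT, Larp1, Eif4ebp1 and Mycn passed in the same direction, and Myc had -0.21 (edgeR adjusted p = 0.0724). Myc had 244, 262 and 237 CPM in KO libraries and 377, 276 and 297 CPM in WT libraries, which did not overlap.

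NHD13 HSPCs and WT HSPCs differed in few members, and the answer depended on 1 library. The NHD13 libraries are labelled Setd2 flox/flox and the WT libraries C57BL/6. The transgene and the floxed allele therefore cannot be told apart in this comparison. With all libraries 3 members rose and 6 fell, where 25.3% of all genes rose and 28.7% fell. The median was 0.03, against -0.04 for all genes. Of the 2017 genes with a mean of 100 CPM or more, 1007 rose and 303 fell, with a median of 0.178, above that of the members. Without replicate 1 of WT, 1 rose and 33 fell, where 25.9% and 28.4% of all genes did, and the median was -0.11. Among the 3 that rose, Rpl7l1 had a log2 difference of 0.33 and Rps27l 0.22. Without that library Rpl7l1 had 0.40 (edgeR adjusted p = 2.77e-06), and Rps27l had 0.11 and did not pass. All 6 stem and progenitor markers were lower and all 10 neutrophil markers higher in NHD13 libraries than in WT libraries, and their part in the difference was not tested.

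The scaling of the libraries set the direction of this comparison. With column totals alone, 67 members fell and none rose in NHD13 libraries, where 53.2% of all genes fell and 10.7% rose, and the median of all genes moved to -0.42. The member median of -0.36 on that scale lay close to that of all genes. With a correction for gene length, 24 members rose and 4 fell, where 31.6% and 25.1% of all genes did.

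Among the 6 that fell, Rpl22l1, Rps20 and Rpl10a had log2 differences of -0.40, -0.32 and -0.26, and their NHD13 and WT libraries overlapped. Without replicate 1 of WT these 3 had -0.51, -0.44 and -0.39 and passed. Beyond these small shifts, Rpl29 and Rps4l fell by far more than the other members. Here too the transgene and the floxed Setd2 allele cannot be told apart. Rpl29 had 54.3, 58.4 and 64.4 CPM in NHD13 libraries and 474, 572 and 582 CPM in WT libraries, and in KO libraries it stayed below WT, at 132 to 152 CPM. The log2 difference was -3.20 ± 0.089 in NHD13 and -1.95 ± 0.084 in KO libraries over WT libraries (edgeR adjusted p = 1.53e-15 and 3.76e-12), and -3.29 and -2.03 without replicate 1 of WT. Rps4l, a paralog of Rps4x with a body of 941 bases on chromosome 6, had 1.13, 2.57 and 2.13 CPM in NHD13 libraries and 27.8, 25.7 and 26.9 CPM in WT libraries, a log2 difference of -3.78 ± 0.18 (edgeR adjusted p = 2.42e-11), and -3.75 without replicate 1 of WT. In AML libraries Rps4l had no count in 58494914, against 243 counts in KO libraries, so it was at least 66.3-fold lower in AML than in KO on a floor of 3 counts over the group. Such a floor covers counting error only.

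**Figure D3:**
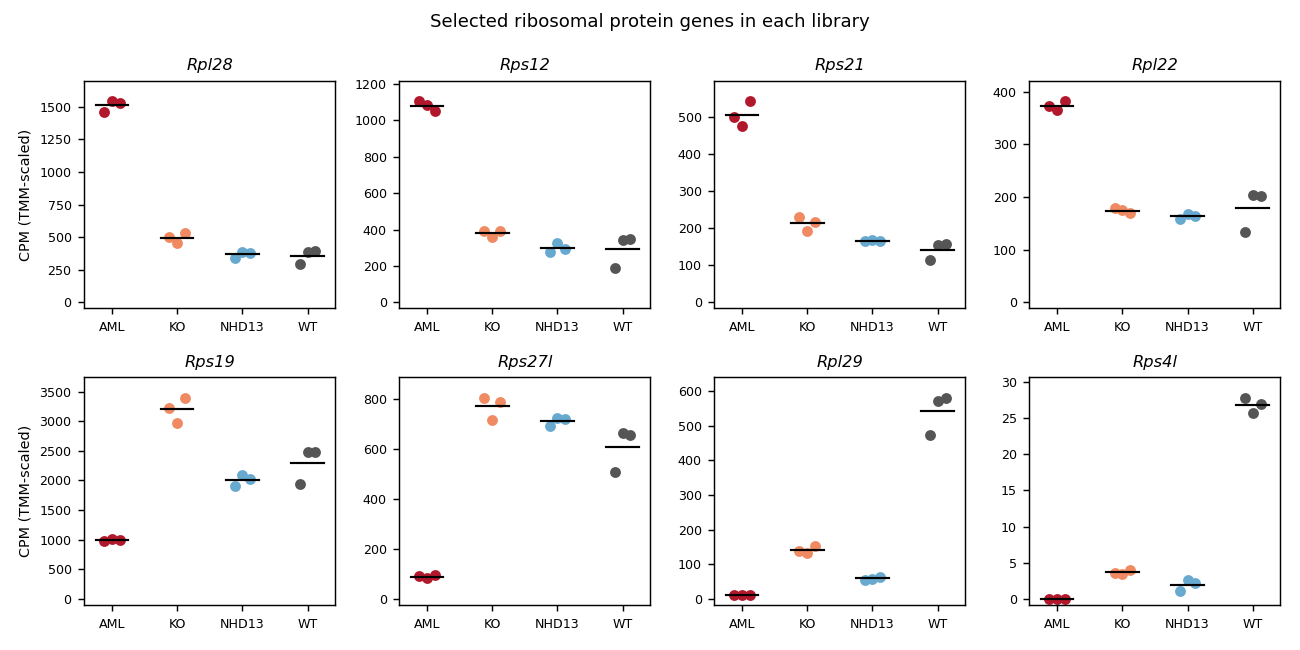
CPM scaled by TMM factors in each of the 12 libraries for 8 members; points are libraries, lines are group means, and each panel has its own axis from 0. Rpl28, Rps12, Rps21 and Rpl22 are highest in AML libraries; Rps19 and Rps27l are lowest there; Rpl29 and Rps4l are highest in WT libraries and lowest in AML libraries.

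In leukemic spleen the members went in both directions. In AML C-Kit+ cells against KO HSPCs, 23 members rose and 42 fell, where 42.8% of all genes rose and 39.5% fell, and the median log2 difference was -0.25 against 0.08 for all genes and -0.91 for genes with a mean of 100 CPM or more. Without Rps4l, which had no count in AML libraries, the SD of the log2 differences of the other 81 members was 0.90, against 0.20 for the same members in KO over NHD13. The AML libraries lay above all KO libraries for 26 members and below them for 45, as for 44.8% and 40.8% of all genes. Tissue, sorting gate and disease stage differ together between these groups and cannot be told apart. The 9 erythroid markers summed to 67.8 to 75.8 CPM in AML libraries and 2435 to 2559 CPM in KO libraries, with 7 lower and 1 higher, none of them at 0 in either group. Their part in the result was not tested.

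The members that rose most were Rpl28, Rps12, Rps21 and Rpl22. Rpl28, a large-subunit protein, had 1463, 1543 and 1531 CPM in AML libraries and 501, 454 and 536 CPM in KO libraries (log2 difference 1.61 ± 0.096, edgeR adjusted p = 6.93e-11). Rps12, a small-subunit protein whose fly counterpart acts in cell competition, had 1106, 1084 and 1050 CPM in AML and 390, 358 and 391 CPM in KO libraries (log2 difference 1.51 ± 0.19, edgeR adjusted p = 3.93e-05). Rps21 rose by 1.25 and Rpl22 by 1.1 on the log2 scale, and none of these 4 genes had overlapping groups.

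Apart from Rps4l, Rpl29 fell most, to 11.4, 10.9 and 12.4 CPM in AML libraries, against 132 to 152 CPM in KO libraries (12.2-fold lower, edgeR adjusted p = 1.68e-16). Rps27l, a paralog of Rps27 that p53 induces, had 89.7, 82.99 and 94.2 CPM in AML libraries and 805, 716 and 789 CPM in KO libraries, 8.65-fold lower in AML (edgeR adjusted p = 1.01e-15). Rps27 itself had 586, 532 and 539 CPM in AML libraries and 565, 477 and 554 CPM in KO libraries, which overlapped (edgeR adjusted p = 0.761). With the length correction Rps27 was called higher in AML (log2 difference 0.90, edgeR adjusted p = 3.28e-05). By column totals it averaged 683 CPM in AML libraries and 494 CPM in KO libraries. Rps27rt, the retrotransposed copy, had 8.19, 8.09 and 14.4 CPM in AML libraries and 41.6, 37.0 and 45.4 CPM in KO libraries (log2 difference -2.01, edgeR adjusted p = 5.69e-05). Per length, Rps27l stood at 19.6% to 22.3% of the FPKM of Rps27 in AML libraries, at 182% to 191.8% in KO, at 228.5% to 275.2% in NHD13 and at 164.8% to 200.8% in WT libraries.

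In a second pair, without the length correction, the partner was called and the paralog was not. Rpl22, whose protein represses the mRNA of its paralog Rpl22l1, rose in AML libraries, at 373, 366 and 382 CPM against 179, 175 and 170 CPM in KO libraries, while Rpl22l1 had 34.7, 32.9 and 36.6 CPM in AML and 42.3, 32.7 and 33.8 CPM in KO libraries and did not pass. Rpl22l1 passed as higher in AML with the length correction (log2 difference 0.45) and with column totals (0.36). Rpl22l1 stood at 13.2% to 14.02% of the FPKM of Rpl22 in AML libraries and at 27.3% to 34.6% in KO libraries, without overlap. Reads of Rps27 and Rps27rt, and of other members and their copies, may have been divided by the counting, and this was not tested.

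The anemia-linked genes went both ways in AML libraries over KO libraries, with 5 of 19 higher and 6 lower, where 42.8% of all genes rose and 39.5% fell. Rps19 had 969, 1007 and 994 CPM in AML libraries and 3222, 2972 and 3399 CPM in KO libraries, 3.23-fold lower in AML (edgeR adjusted p = 8.48e-13). Rpl11 rose by 0.57 and Rpl31 by 0.73 on the log2 scale. Of the stalk genes Rplp1 rose and Rplp0 and Rplp2 fell, but with the length correction Rplp0 had 0.16 and Rplp2 0.16, and with column totals Rplp2 had 0.10 and Rplp0 -0.085. In the assembly list 12 of 43 rose and 27 fell, beside the same shares of all genes. Nop10 and Nhp2, small proteins of the particles that modify ribosomal RNA, fell by 3.11 and 2.05, and Polr1a, the largest subunit of RNA polymerase I, rose by 1.80. Of the 22 TOP genes, 12 rose and 8 fell, with Eef2 the highest riser at 3046, 3241 and 3180 CPM in AML and 522, 521 and 582 CPM in KO libraries.

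The AML contrast ran with gene length over all genes. The median log2 difference of AML over KO was -1.06 for genes of up to 1000 bases and 0.97 for genes over 8000 bases, and the members, which are short, had -0.55 for the 17 of up to 1000 bases and 0.17 for the 6 of over 4000 bases. With a correction for length, 44 members rose and 22 fell, where 38.8% and 41.4% of all genes did, and the median became 0.23. With column totals, 41 rose and 22 fell, where 51.7% and 30.9% of all genes did, the member median was 0.17 and that of all genes 0.49. The direction of the members as a whole in AML over KO therefore differs between these scalings.

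Several members at either end were called the same way with and without the correction. Called higher both times were 20 members, among them Rpl28 (log2 difference 2.18 after correction), Rps21 (2.16), Rps12 (2.0) and Rpl22 (1.25). Called lower in both were 19, among them Rpl29 (-2.78), Rps27l (-2.20), Rps19 (-2.09) and Rpl13 (-1.31). Another 13 were lower without and higher with the correction, such as Rpl35, Rps2, Rps14 and Rps23, and none turned the other way. Of all genes, 35% were higher and 34.4% lower in both fits, 0.474% were lower without and higher with the correction, and 2.53% the other way. Rpl13 and the 13 that turned were named after their values were seen.

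**Figure D4:**
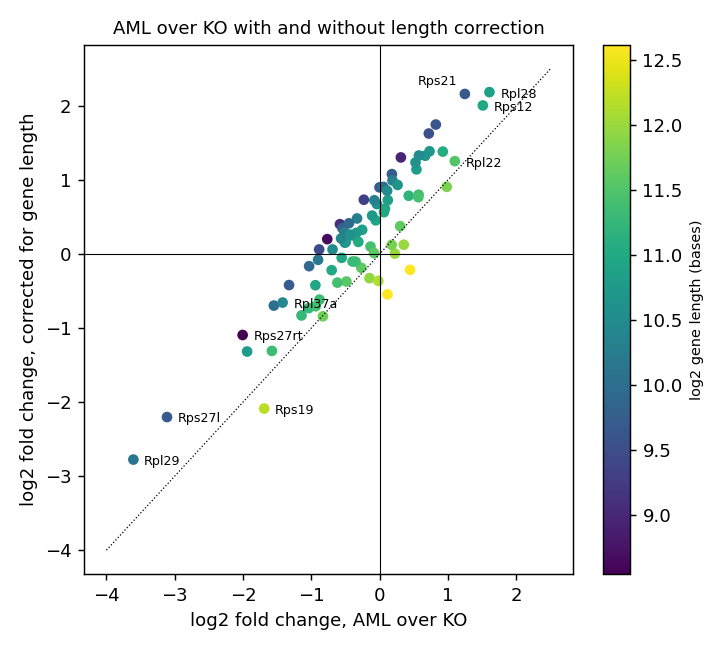
log2 fold changes of AML over KO for 81 members, as tested (x axis) and with a correction for gene length (y axis); colors give gene length on a log2 scale and the dotted line marks equal values. Most members move up with the correction, while Rpl28, Rps12 and Rps21 are highest and Rpl29 and Rps27l lowest on both axes; Rps4l is not drawn.

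H3K36me3 lay on most of these genes in both leukemias, over less of the gene in the Setd2 KO. Peaks as the authors deposited them overlapped the body of 66 of 82 members in NHD13/Setd2 KO AML and of 78 in NHD13 AML. Among genes with a body of at most 12000 bases, the size range of the members, 27.2% and 56.2% had a peak, and among all genes 42.8% and 69.1%. No member had a peak in the KO AML library alone, 12 had one in the NHD13 AML library alone and 4 in neither: Rpl41, Rps27rt, Rps29 and Rps4l. Peaks covered at least 50% of the body of 31 members in KO AML and 58 in NHD13 AML, against 5.28% and 35.6% of genes of that size. The median member had 40% of its body under peaks in KO AML and 61.3% in NHD13 AML.

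Coverage was high in both libraries for some members. Rpl3, a protein of the peptide-joining center, was covered over 76.9% of its body in KO AML and 85.9% in NHD13 AML, with the authors' peak fold of 6.93 and 8.29, and Rplp2 over 77.1% and 80.6%. Rpl37a, Rps21, Rps23 and the X-linked Rpl10, Rpl36a and Rpl39 were among the 12 with a peak in NHD13 AML alone. Each list comes from 1 library, with 16902 peaks in KO AML and 30953 in NHD13 AML, so these values have no replicate check, and the depth and the input control of these libraries are unknown here.

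Regions of differential methylation at the members were nearly all lower in KO. In the authors' deposited table of KO and NHD13, 45 of 82 members had a region lower in KO within the body or 2000 bases on either side, and 3 of these also had one higher, against 22.9% of genes of that size with a lower and 13.6% with a higher region. In the authors' deposited table the 66 lower regions had a median methylation of 25.5% in KO and 60.0% in NHD13. On autosomes alone 41 of 78 members had a lower region. The lower regions overlapped an H3K36me3 peak of NHD13 AML in 49 of 66 cases (74.24%), against 28.74% of all 8378 regions lower in KO. These shares rest on unlike sets. The 66 regions lie at members, of which 78 of 82 have such a peak, while the 8378 lie anywhere in the genome. Regions at other genes with a peak were not compared. The peaks are from leukemic spleen and the methylation is from HSPCs.

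By the authors' deposited table, the largest drop was next to Rpl4, at 14.97% in KO and 73.8% in NHD13 over 6 CpG sites, followed on autosomes by Rpl13a, at 23.4% in KO and 65.8% in NHD13 over 55 sites. Of the 45 members with a region lower in KO, 30 were called higher in RNA in KO over NHD13, with a median log2 difference of 0.33, and of the 37 members without one, 23 were, with a median of 0.35. In the authors' deposited table of NHD13 and WT, 26 members had a region lower in NHD13 and 4 a higher one, against 26.6% and 13.9% of genes of that size. Rpl29, the gene that fell most in RNA next to Rps4l, had 3 of these lower regions in the authors' deposited table, at 56.7%, 30.7% and 56.6% in NHD13 and 91.45%, 55.5% and 99.0% in WT over 9, 6 and 8 CpG sites. In the authors' deposited table of AML and KO, 4 had a region lower in AML and 19 a higher one, against 16.7% and 19.5%. The tables hold no coverage and rest on 1 library a side, so the depth is unknown and no error can be given.

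**Figure D5:**
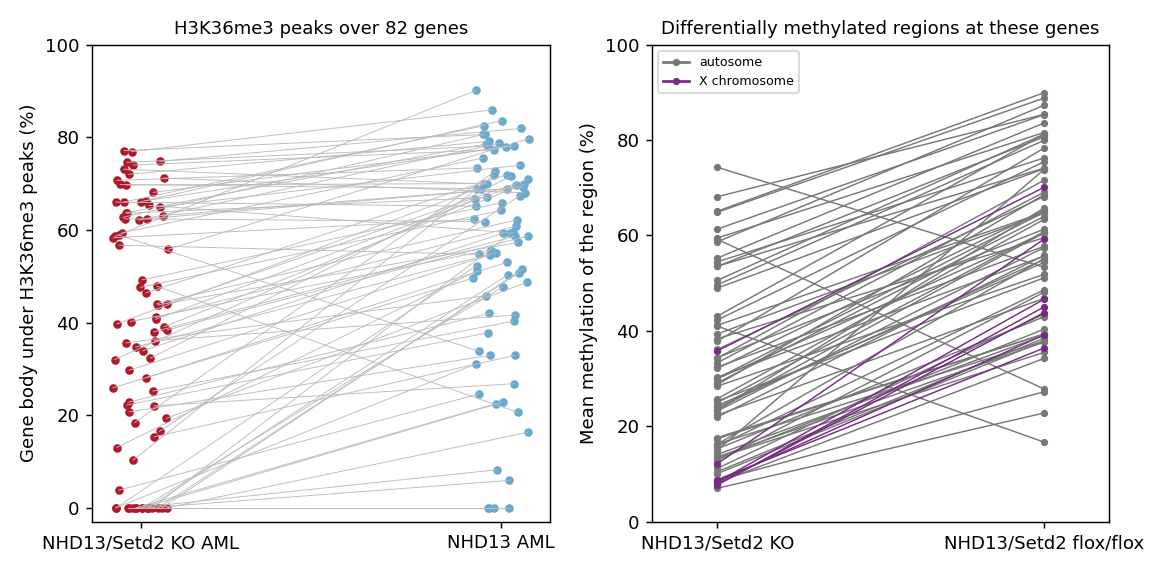
Left, percent of the body of each of the 82 genes under H3K36me3 peaks in NHD13/Setd2 KO AML and NHD13 AML, with 1 line a gene; right, mean methylation in percent of each deposited region at these genes in NHD13/Setd2 KO and NHD13/Setd2 flox/flox HSPCs, with 1 line a region and X-linked genes in purple. Coverage is mostly lower in KO AML, and 66 regions are lower and 3 higher in KO.

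Of the 61 members in the promoter table, 5 had a region over the 250 bases before a listed start. At 4 of them, all on the X chromosome, methylation was lower in KO: 8.39% in KO and 39.15% in NHD13 for Rpl10, 7.76% and 43.83% for Rpl36a, 8.79% and 36.39% for Rpl39, and 8.33% and 46.62% for Rps4x, by the authors' deposited table. The RNA of the KO libraries lacked Xist, so X-linked promoter values and sex cannot be told apart. Away from a listed start, regions of the authors' deposited tables spanned the outer end of the annotated body of Rpl19, at 52.06% in AML and 28.39% in KO and at 40.99% in KO and 16.68% in NHD13, and of Rpl38, at 21.76% in AML and 63.99% in KO. The fifth case was Rpl37a, on chromosome 1, which in the authors' deposited table stood at 53.4% in AML and 16.11% in KO over 69 CpG sites. Rpl37a had 585, 599 and 598 CPM in AML libraries and 1706, 1399 and 1671 CPM in KO libraries, 2.68-fold lower in AML without overlap (edgeR adjusted p = 2.71e-10), and still lower with the length correction, at a log2 difference of -0.66.

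The region covers all of the 250 bases before the annotated start of Rpl37a (chr1:72711010-72711259, plus strand, RefSeq sequence of GRCm38.p6), which hold 19 CpG sites, shown in capitals because they are the positions that methylation can occupy.
Rpl37a: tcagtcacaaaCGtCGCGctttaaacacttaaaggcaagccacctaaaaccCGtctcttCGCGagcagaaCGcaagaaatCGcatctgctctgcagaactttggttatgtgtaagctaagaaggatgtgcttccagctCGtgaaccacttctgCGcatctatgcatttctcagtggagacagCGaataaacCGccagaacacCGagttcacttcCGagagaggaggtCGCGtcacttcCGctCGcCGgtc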

How the data were processed

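The authors deposited raw counts for each gene in 12 RNA libraries, and the tools named for them in the submitters' processing notes are HISAT2 2.0.5 and HTSeq 0.9.1, with mm10 as the build. The deposited FPKM values equal the count divided by gene length and column total. Per the file headers and layout, the deposited broad peak lists hold a score, a fold enrichment and −log10 p and q values, and the submitters' processing notes name MACS2 2.1.1.20160309. The deposited tables of differentially methylated regions give each side's methylation as a fraction, shown here in percent. The sides carry numbers, not names; they were taken in the order in which each table names its libraries, and the library that a pair of tables shares had identical values on the sides so assigned (median difference 0 over 4032 and 2467 identical regions). The caller of these regions and the strand setting of the counting are not given here.

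The test on counts was that of edgeR 4.0.16 under R 4.3.3, with TMM factors from 0.798 to 1.25, filterByExpr (16233 genes kept, all 82 members among them), 1 model of 4 groups over 12 libraries with 8 residual degrees of freedom, the robust quasi-likelihood F test, and Benjamini-Hochberg adjustment over all genes at 0.05. CPM values of single genes are TMM-scaled, while shares, Xist, Eif2s3y, Rps4l counts and the membership level use column totals. Errors of log2 differences are SEs, those of means are SDs. Coordinates and start sequences came from RefSeq GRCm38.p6, matched by symbol for 14244 tested genes. Peaks count at 1 base of overlap unless stated.

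The named genes are, in each comparison, the 4 members with the largest rise and the 4 with the largest fall past the threshold without overlap, the fixed subsets (stalk, 5S particle, paralogs, anemia genes), and the 2 largest movers of each pathway list each way. Other genes are named after their values were seen. Results of some genes under this rule are not reported here. Members and lists were chosen with earlier results of these data known. Alternatives were DESeq2 1.42.0, other scalings, no filter, a gene-length correction (lowess of log2 CPM on log2 length, span 0.3), -ps copies added to members, 6-library fits, a replicate block and leaving out each library. Regions of at least 10 CpG sites were another.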

Additional observations from a re-analysis of the deposited data

How the results depend on the processing

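Which library was left out moved counts of members called: 33 to 54 higher and 1 lower in KO over NHD13, 40 to 58 higher and 2 to 3 lower in KO over WT, 18 to 22 higher and 38 to 41 lower in AML over KO, 1 to 9 higher and 3 to 33 lower in NHD13 over WT; medians ranged from 0.31 to 0.40, 0.18 to 0.40, -0.28 to -0.18 and -0.11 to 0.10. Same-numbered libraries did not deviate together (correlations -0.38 to 0.54), so numbers were not taken as pairs; a replicate block gave 55 higher and 1 lower in KO over NHD13, 53 and 2 in KO over WT, 23 and 42 in AML over KO and 4 and 7 in NHD13 over WT. With 1 library left out, all genes called higher were 16.9% to 18.7%, 14.7% to 18.1%, 40.7% to 41.5% and 22.7% to 25.9% in that order. Those called lower were 16.9% to 18.7%, 16.2% to 19.6%, 37% to 37.7% and 25.2% to 28.4%. With the block, 19.9%, 16.5%, 42.3% and 24.9% of all genes were higher and 19.7%, 19.2%, 39.2% and 27.9% lower. The cause was not tested for any change below.

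With column totals, 0 members were higher and 67 lower in NHD13 over WT (median -0.36), 0 lower in KO over NHD13 (median 0.53), 41 higher and 22 lower in AML over KO (median 0.17) and 21 higher in KO over WT (median 0.14), while the median of all genes moved to -0.42, 0.21, 0.49 and -0.21. Upper-quartile factors gave 1 higher in NHD13 over WT, where 20.7% of all genes were, and a median of 0.41 in KO over NHD13. In AML over KO they gave 13 higher, where 39% of all genes were, and a median of -0.44. Length correction gave 24 higher in NHD13 over WT and a median of 0.26 in KO over NHD13. In AML over KO it gave 44 higher and 22 lower with a median of 0.23. Shares of all genes for column totals and length correction are given above. In KO over NHD13, 12.6% of all genes were lower with column totals. In NHD13 over WT, 7 were higher with DESeq2 size factors and with its Wald test, where 28.2% and 28.1% of all genes were. No filter gave 10, where 12.7% were, and only the 6 libraries compared gave 1, where 25.1% were. With only the 6 libraries compared, 66 members were higher and 1 lower in KO over NHD13, where 22.6% and 24.2% of all genes were. In AML over KO that fit gave 21 higher and 49 lower, where 44.8% and 42.9% of all genes were, and a median of -0.35. The members' share without the 10 most abundant genes was 9.03% in AML, 9.0% in KO and 6.65% in NHD13. Peaks covering 50% of the body were on 31 members in KO AML, against 5.28% of genes with a body of at most 12000 bases. Peaks with −log10 q of at least 10 were on 0 members in KO AML and 23 in NHD13 AML. Of genes of that size, 0.19% and 7.22% had such a peak. Regions in the body alone were at 29 members in KO and NHD13 and 6 in AML and KO, against 23.37% and 22.56% of genes of that size.

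Named values that turned with column totals in NHD13 over WT were Rpl7l1 -0.055, Rps27l -0.16, Rplp0 -0.32, Rpl5 -0.35, Rpl11 -0.36, Rpl10 -0.29, Rps28 -0.30, Rpl15 -0.33, Rpl27 -0.19, Rpl31 -0.35, Rpl35 -0.34, Rps19bp1 -0.26, Eif3a -0.17, Eef1d -0.19, Rpsa -0.38 and Rack1 -0.31. In the same setting Ncl had 0.011 in KO over NHD13 and Rpl7l1 -0.20 in KO over WT, and in AML over KO Rplp2 had 0.10, Rpl5 0.26, Rpl22l1 0.36, Rpl3 0.14, Rpl7 0.28, Rpl27 0.37, Rpl35 0.084 and Rack1 0.33. With length correction in AML over KO, Rplp0 had 0.16, Rplp2 0.16, Rpl22l1 0.45, Rps14 0.21, Rps24 -0.22, Rps29 0.06, Rpl26 0.06, Rpl27 0.67 and Rpl35 0.48. Of 2985 values of named genes under alternatives, 2693 kept their call or stayed uncalled, 151 lost and 106 gained the call. Another 35 changed direction with a call in at least 1 of the fits. Values uncalled in both fits count among the 2693 even where their sign changed.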
